A study of Mus musculus with 2 samples.

Results

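The genes described here are *Il18*, its secreted antagonist *Il18bp*, its receptor subunit *Il18r1*, the related cytokine *Il1b*, and the inflammasome genes *Nlrp3*, *Pycard* and *Casp1*. They were listed by name, and *Il18* was put on the list because it is among the most counted genes of the data, so its high rank is given as a description and was not tested. Of the 7 listed genes, 6 were analysed out of 17774 genes with counts, and *Casp1* was not analysed here. The RNA came from single GFP-positive cells of *Pde6c*.GFP retinae, collected at postnatal day 24. These mice carry the *Pde6c* cpfl1 mutation, a model of cone dystrophy, on a C57BL/6 background, together with an eGFP transgene under the *Chrnb4* promoter that labels cones. One library was made from uninjected retinae. The other was made from retinae given a single intravitreal injection of GSK-J4, an inhibitor of H3K27 demethylases, at 10 µM on postnatal day 14, with collection 10 days later. Both libraries carry the mutation and the reporter, and neither is from wildtype mice or from sham-injected eyes, so the effects of the drug, the injection and the plate cannot be told apart. The labels give the same age for both libraries, but the cell names of the treated library hold the word adult where those of the uninjected library hold P24, so an age difference cannot be told apart from the treatment either. How many animals contributed to each library was not given in the sources used here.

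Interleukin-18 and interleukin-1β are cytokines of the interleukin-1 family that are made as inactive precursors. In an inflammasome, a sensor such as NLRP3 gathers the adaptor ASC, which is encoded by *Pycard*, and ASC in turn recruits caspase-1, the protease that cuts both precursors into their active forms. *Nlrp3* and *Il1b* are usually kept low until immune cells such as microglia are activated, whereas *Il18* messenger RNA is present in many resting tissues, and IL-18 has been studied in the retina for its roles in the pigment epithelium and in vessel growth.

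After the quality filter, 82 uninjected and 64 GSK-J4-treated wells with 1 sorted cell each remained, holding 1113424 and 208578 counts. The median well held 8118 counts in the uninjected library (range 860 to 98250) and 2336 in the GSK-J4-treated library (range 420 to 15371). The 11 cone marker genes listed had counts in all 82 uninjected wells (0.358 to 9.81% of a well's counts) but in only 14 of the 64 GSK-J4-treated wells (0 to 6.74%), where 5 of the 11 genes were at 0. Most treated wells thus lacked the markers of the labelled cell type. Of the 15 microglia markers, 5 were analysed, and together they took 0.00808% of the uninjected and 0.0129% of the GSK-J4-treated counts. Most of these counts were of *Trem2* (63 and 19), followed by *Ptprc* (17 and 1), while *Cx3cr1* had 4 and 1, *Tmem119* 4 and 4, and *C1qa* 2 and 2.

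The wells of the uninjected plate were not independent of each other. Its 82 wells contained 39 pairs that lay in the same row and 6 columns apart, and the total counts of the paired wells moved together (Spearman's rho = 0.90 over 39 pairs, given as a description). After centring each side of the plate on its own mean, the well in columns 1 to 6 was most like its partner in 38 of the 39 pairs (97.4%). Among 1779 genes with at least 50% of their uninjected counts in 2 wells, and at least 10 and 5 counts there, these wells were such partners for 629 genes (35.4%). On the GSK-J4-treated plate the corresponding values were a rho of 0.028 over 22 pairs, 2 of 22 pairs, and 3 of 189 genes (1.59%). Counting a pair once leaves 43 pairs or single wells in place of 82. Whether partner wells hold RNA of the same cell was not tested. The libraries shared no cell name. The values below are given per well, so their intervals treat partner wells as separate, and shares with partners summed are given beside them.

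**Figure D1:**
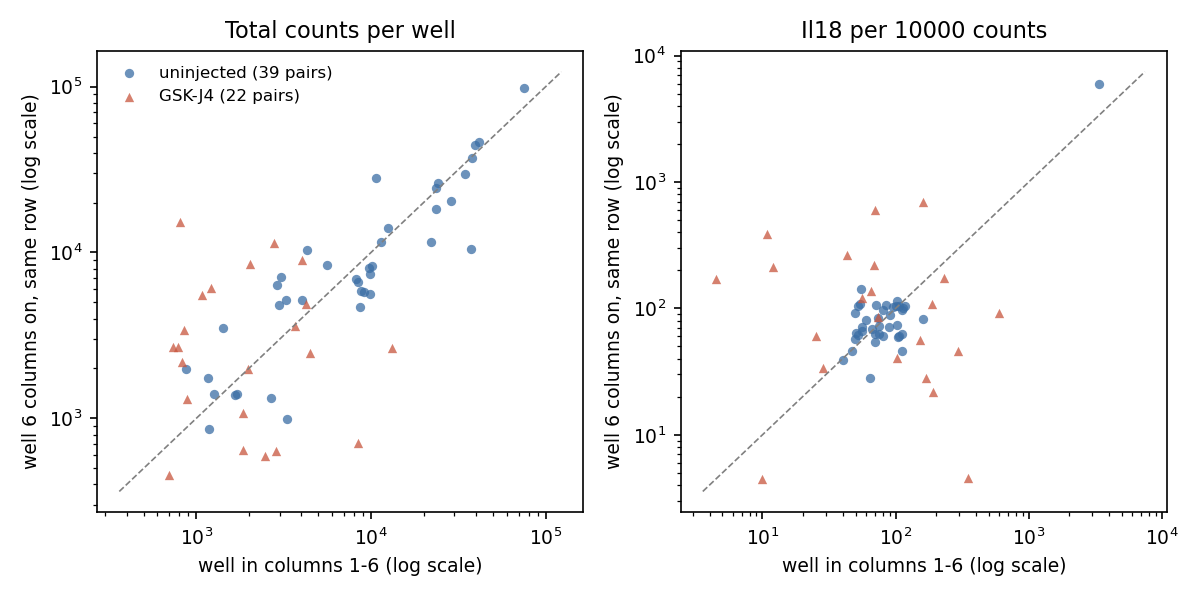
Total counts (left) and *Il18* counts per 10000 (right) in wells of columns 1 to 6 against the wells 6 columns further in the same row, both on log axes, with uninjected pairs as circles, GSK-J4-treated pairs as triangles and equality as a dashed line. The 39 uninjected pairs follow the line in total counts (rho = 0.90), the 22 treated pairs do not (rho = 0.028), and the only uninjected pair far from the others in *Il18* is D04 with D10. For the *Il18* level rho is 0.29 (uninjected) and -0.25 (treated).

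*Il18* (ENSMUSG00000039217.13) lies on the plus strand of chromosome 9 from 50554827 to 50581840 in GRCm38, with 1031 bases of exon. On the other strand its bounds overlap those of *Bco2* by 355 bases at the start and contain *Tex12*, but no base of an *Il18* exon is shared with an exon of either gene. *Bco2*, which encodes a carotenoid-cleaving enzyme, had 5 counts in the uninjected and 2 in the treated library, and *Tex12*, a meiotic chromosome gene, had 2 and 0. Of the nearest genes outside *Il18*, *Pts* had 20 and 4 counts, *Sdhd* 3 and 0, and *Timm8b* 161 and 1. The high counts were thus those of *Il18* alone among the genes of this stretch. Since the RefSeq start of *Il18* falls within the annotated bounds of *Bco2*, the 250 bases before it are shown here, next to those before *Il1b*, the member with the next highest count. The sequences are from RefSeq (GRCm38.p6), 5′ to 3′ on the strand of the gene, and capitals mark matches to TATAAA or CCAAT on either strand.

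Il18, chr9:50554450-50554699, plus strand: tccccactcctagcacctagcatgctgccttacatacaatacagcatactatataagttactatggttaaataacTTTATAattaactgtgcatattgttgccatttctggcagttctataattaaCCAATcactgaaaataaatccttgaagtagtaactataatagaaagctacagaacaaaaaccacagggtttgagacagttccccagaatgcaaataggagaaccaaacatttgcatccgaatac

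Il1b, chr2:129371140-129371389, minus strand: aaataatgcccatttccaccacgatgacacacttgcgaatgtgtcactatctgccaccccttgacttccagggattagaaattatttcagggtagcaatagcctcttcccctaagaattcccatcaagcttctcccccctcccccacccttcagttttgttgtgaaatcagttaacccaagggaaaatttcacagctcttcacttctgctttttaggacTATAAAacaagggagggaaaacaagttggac

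The *Il18* window held 1 TATAAA match, on the opposite strand, and 1 CCAAT match, and had 35.6% G and C with 1 CpG. The *Il1b* window held 1 TATAAA match close to the start and no CCAAT match, with 44.4% G and C and 2 CpG. Among 32851 promoter windows of the same length, 12.4% held TATAAA and 33.8% held CCAAT anywhere on either strand. These shares do not take the place or strand of a match into account.

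*Il18* was counted in every well of both libraries. It had 15222 counts in uninjected wells (95% interval 14981 to 15466, exact Poisson) and 2553 in GSK-J4-treated wells (2455 to 2654), which ranked it 6th and 7th of 15947 genes. Without D04 and D10, the wells described below, it had 8487 uninjected counts and ranked 10th. In the uninjected library it stood between *Cttnbp2nl* (20510 counts) and *Tmsb10* (13998), and in the GSK-J4-treated library between *Trpm4* (3151) and *Prelp* (2344). Per kilobase of exon it had 14764 and 2476 counts, ranks 2 and 3 of the 15794 genes with a length. These intervals cover counting error only, and the length scaling assumes reads spread along a transcript, whereas the counts come from its 3′ and 5′ ends. With each well thinned to 867 counts, 99.6% of 81 uninjected and 94.0% of 50 treated wells would still hold a count of *Il18*, and the largest share lost to thinning was in the treated library.

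The level of *Il18* differed most between wells rather than between libraries. In uninjected wells the lowest value was 28.4 counts per 10000, the median 74.3 and the highest 5970. In GSK-J4-treated wells the lowest was 4.45, the median 121 and the highest 694. The groups overlapped, and both ends of the range without the extreme uninjected wells belonged to treated wells.

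Wells D04 and D10 stood apart from all other uninjected wells. D10 had 3373 *Il18* counts of 5650 (59.7%, 58.4 to 61.0%, Clopper-Pearson) and D04 had 3362 of 9920 (33.9%, 33.0 to 34.8%). These wells are linked partners, so their near-equal counts are not independent observations, although the per-well values count each of them separately. Together they held 44.2% of all uninjected *Il18* counts, and the next highest level was 162 per 10000. With *Il18* set aside, the most counted genes of D10 and D04 were *Pcdhb13* (163 counts) and *Tmsb10* (267), and cone markers took 0.966% and 6.80% of the remaining counts. Microglia markers had 0 counts in both wells, and of the other members *Il1b* had 1 count in D10 and the rest had none.

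**Figure D2:**
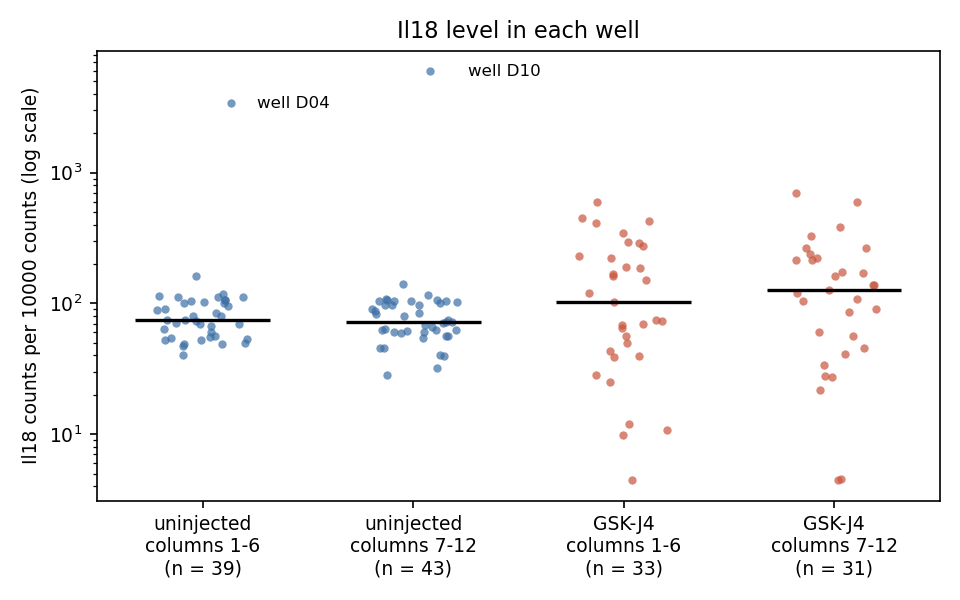
*Il18* counts per 10000 counts in each well, on a log axis, by library and side of the plate, where each point is a well and each line the median of its group. Uninjected wells lie between 28.4 and 162 except for D04 and D10, with medians of 74.9 and 72.2 on the first and last side, while GSK-J4-treated wells spread from 4.45 to 694 with medians of 102 and 127.

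Over all wells, the coefficient of variation of the *Il18* level was 389% in uninjected and 94.97% in treated wells, and the variance of the counts was 2723 and 44.3 times the value given by counting alone. Between the 10th and the 90th percentile, by contrast, the level changed 2.27-fold over all 82 uninjected and 16.4-fold over all 64 treated wells. Which library varied more thus depended on the measure and, for the coefficient of variation and the variance, on D04 and D10. In the other 80 uninjected wells the level of *Il18* lay from 28.4 to 162 with a median of 73.9 and a mean of 78.6 ± 26.1 per 10000 (SD over 80 wells). In the 64 treated wells the mean was 164 ± 156 (SD over 64 wells). The coefficient of variation was 33.2% in these 80 uninjected wells and 88.1% in the treated wells when their own 2 highest wells were also left out. Relative to the range of the 80 uninjected wells, 25 of 64 treated wells lay above it (39.1%, 27.1 to 52.1%), 11 below it (17.2%, 8.90 to 28.7%) and 28 within it. With the 2 highest wells of each library left out, the variance of the counts was 7.91 and 30.4 times the value given by counting alone, a measure that allows for the depth of each well. On the first and last side of the plate the coefficient of variation was 33.4% and 33.2% in uninjected wells without D04 and D10, and 94.8% and 96.6% in all treated wells. The 4 groups of wells had medians, in rising order, of 72.2 (uninjected, columns 7 to 12), 74.9 (uninjected, columns 1 to 6), 102 (GSK-J4, columns 1 to 6) and 127 (GSK-J4, columns 7 to 12), and the quartiles of each group overlapped those of its neighbour.

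At the low end of the treated wells, C02 had 2 *Il18* counts of 4494, A08 had 4 of 8952 and D11 had 7 of 15371. D11 and A08 were the deepest of these, and their most counted genes were *Add2* (22.9% of the well) and *Hdhd2* (19.6%). C02 was the well with 303 cone marker counts, and its most counted gene was *Hcar2* (13.0%). At the high end, F12 had 252 of 3631, B01 64 of 1077 and A12 38 of 637. The lowest levels were thus found in wells deeper than the treated median, and 2 of the highest in wells below it. The 14 treated wells with a cone marker count had a median *Il18* level of 94.3 per 10000 (4.45 to 694) and the 50 without had 132 (4.47 to 597), which overlapped over nearly the whole range. The median depth of these wells also differed, at 3840 and 1827 counts.

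**Figure D3:**
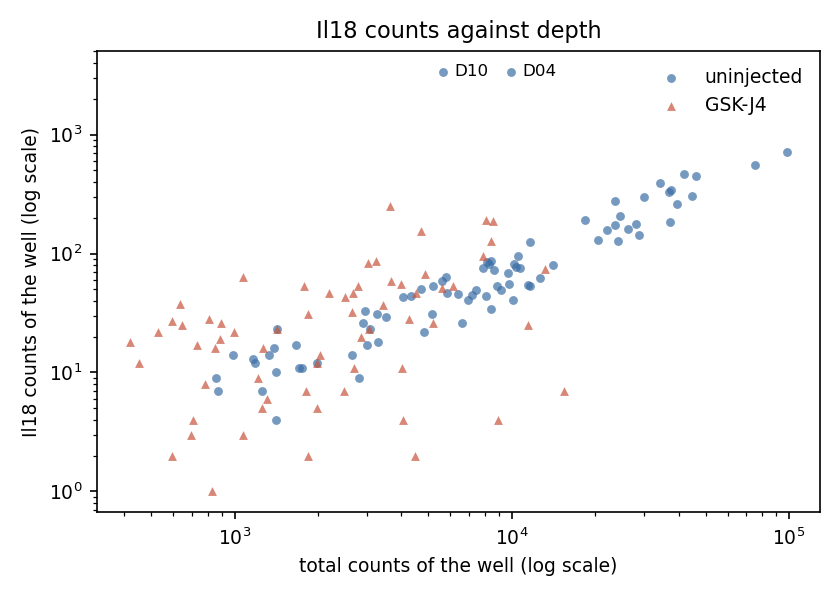
*Il18* counts against total counts of each well, both on log axes, for uninjected (circles) and GSK-J4-treated wells (triangles). In uninjected wells other than D04 and D10 the *Il18* count follows the total closely, whereas treated wells of the same depth scatter widely above and below that line.

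*Il18* per 10000 counts tended to be lower in deeper wells, weakly in the uninjected library (Spearman's rho = -0.13 over the 80 wells). In treated wells rho was -0.32 (over 64 wells). Both are given as descriptions, since level and depth share the well's total. Treated wells were shallower, so the libraries were also set side by side within bands of depth that were chosen after the data were examined, with D04 and D10 left out. In wells with under 2000 counts the median was 101 in 15 uninjected and 165 in 30 treated wells. From 2000 to under 8000 counts it was 77.6 in 24 and 108 in 27 wells. At 8000 or more it was 71.4 in 41 and 56.0 in only 7 wells. The treated wells had the higher median in the lower bands and the lower median in the deepest one, and in every band the range of these 80 uninjected wells lay inside that of the treated wells. D10 (5650 counts in all) and D04 (9920) lay above every treated well of their bands.

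Whether *Il18* was higher or lower after GSK-J4 depended on wells D04 and D10. The mean level was 191 per 10000 in uninjected and 164 in treated wells, a log-fold of -0.15 (natural log of the treated mean plus 1 minus that of the uninjected mean plus 1). This lies within the 0.3 that the study used as its limit of size. Without D04 and D10 the uninjected mean was 78.6 and the log-fold was 0.73, and with the median over all wells in place of the mean it was 0.48. Counts summed over the library gave 137 (135 to 139) and 122 (118 to 127) per 10000, and without the linked wells D04 and D10 the uninjected value was 77.3 (75.7 to 79.0). With these wells left out, the log-fold was positive on either side of the plate (0.69 and 0.77), after thinning (0.55), with at least 500 genes per well (0.48), with summed counts (0.45) and with totals that leave out the 20 most counted genes (0.74). It was -0.10 with median-ratio size factors, a scaling under which the median log-fold of all genes tested was itself -0.14. There is 1 library per condition and the difference has no replicate check.

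**Figure D4:**
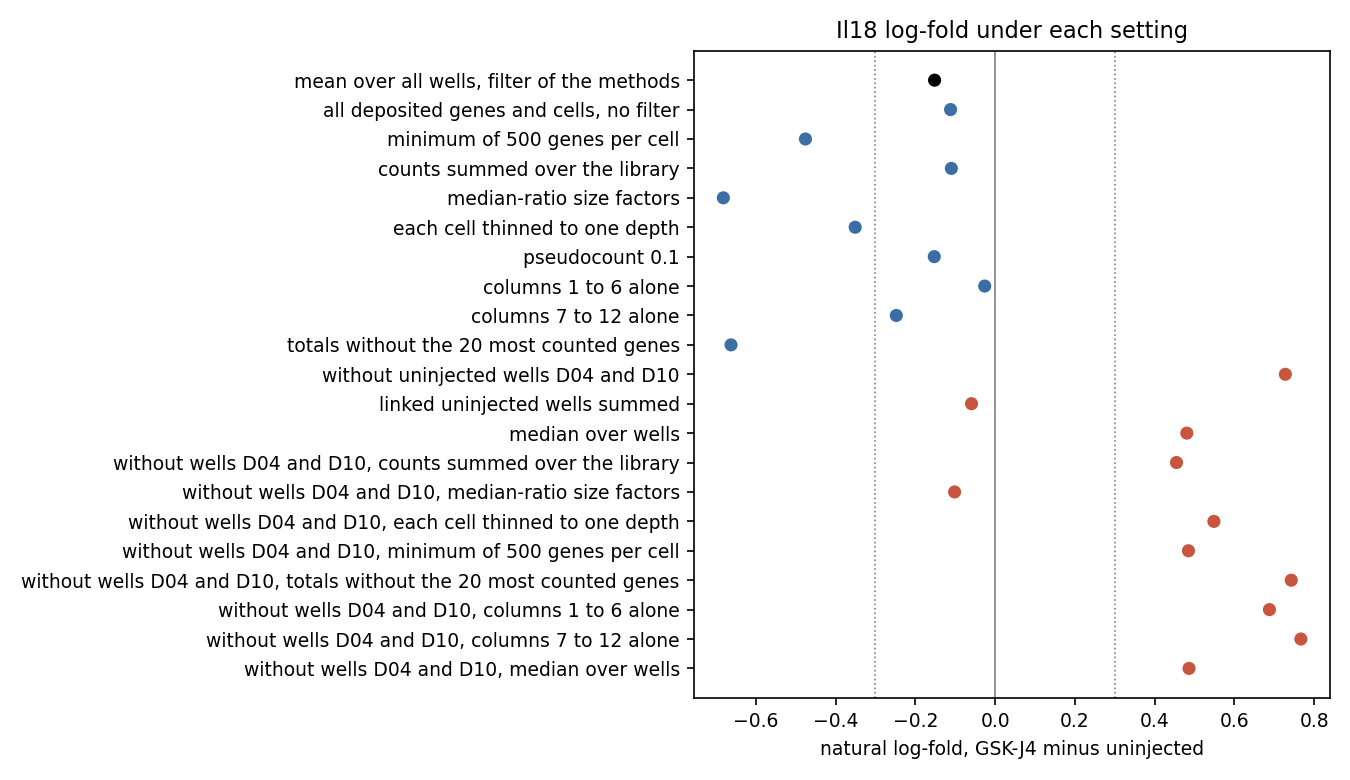
Natural log-fold of *Il18*, GSK-J4-treated minus uninjected, under each setting, with dotted lines at the size limit of 0.3 in either direction. Black is the mean over all wells, blue the other processing settings and red those added after the data were examined. All values that keep D04 and D10 in a mean or sum lie below 0 (-0.68 to -0.026), and those without them lie between 0.45 and 0.77 except with median-ratio size factors (-0.10).

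*Il18* belonged to a group of 9 genes with a count in each of the 146 wells, the others being *Pcdhb13*, *7420701I03Rik*, *Cttnbp2nl*, *Trpm4*, *Prelp*, *Unc45b*, *Vwa3b* and *Shroom2*. The 8 other genes had log-folds from 0.12 to 0.32, and each had a higher median in treated wells. Leaving out D04 and D10 moved them only to between 0.11 and 0.31. The ratio of the highest to the lowest well was 210.3 for *Il18* over all uninjected wells, or 5.71 without D04 and D10, and 156 over treated wells. Over all wells *Vwa3b* had larger ratios in both libraries (335 uninjected and 243 treated), and the remaining genes of the group had smaller ones. Between the 10th and 90th percentile of all wells, *Il18* had the lowest ratio of the 9 genes in the uninjected library (2.27, next *7420701I03Rik* with 2.43) and the highest in the treated library (16.4, next *7420701I03Rik* with 6.17). Over the 82 uninjected wells the genes whose level per 10000 was most like that of *Il18* were *Ccdc93* (Spearman's rho = 0.74), *Add2* (0.71) and *Gm45336* (0.70), of 2643 genes compared. These values were 0.86, 0.78 and 0.78 without D04 and D10, and they lay between 0.63 and 0.79 on either side of the plate. In the 64 treated wells the nearest of 808 genes reached only 0.47 (*7420701I03Rik*), 0.39 (*Prelp*) and 0.37 (*Smtnl1*). All of these except *Smtnl1* (3 and 67 counts) are themselves highly counted genes, and levels in a well share its total.

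*Il1b*, on the minus strand of chromosome 2 from 129364570 to 129371139, was the only other member counted in more than 10 wells. It overlaps *Il1bos*, from which it may not be separable, as no source says that strand was used in counting. *Il1b* had 186 counts in the uninjected library (160.2 to 215), with a lowest and median well of 0 and a highest of 101. The treated library had 18 (10.7 to 28.4), with a lowest and median of 0 and a highest of 9. Most of the uninjected counts lay in 1 linked pair, H10 with 101 and H04 with 49, which held 80.6% of them. The other 32 uninjected wells with a count had 36 counts, at most 4 each. In the treated library C01 held 9 of the 18 counts and H01 held 2. *Il18* was at 56.8 and 49.2 per 10000 in H10 and H04, within the range of the other wells, so the wells that were extreme in *Il1b* were not those extreme in *Il18*. Microglia markers had 1 count in H10, 2 in H04 and 0 in C01, and cone markers had 512, 51 and 0.

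*Il1b* was counted in 34 of 82 uninjected wells (41.5%, 30.7 to 52.9%) and in 9 of 64 treated wells (14.1%, 6.64 to 25.02%). With partner wells summed, it was counted in 23 of 43 (53.5%, 37.7 to 68.8%). The median total was 19350 counts in uninjected wells with *Il1b* and 4564 in those without, but 2496 and 2195 in treated wells. With wells thinned to 867 counts, a depth below that of the median treated well, the expected shares were 6.06% and 7.47%. Whether depth accounts for the gap between the libraries was not tested. The log-fold was 0.064 over all wells, 0.57 over columns 1 to 6, -0.75 over columns 7 to 12 and -0.36 with summed counts, so that no direction held under these settings.

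*Pycard* (chromosome 7, 127989708 to 127993867, minus strand), the adaptor gene, overlaps *Gm45205*. It had 36 counts in 10 of 82 uninjected wells (12.2%, 6.01 to 21.3%), or in 8 of 43 with partners summed (18.6%), with 22 of the counts in B08 and 5 in C12, the deepest well. B02, the linked partner of B08, had 1. B08 held 0 microglia and 1307 cone marker counts. No count was found in treated wells (0 of 64, which allows a share of up to 4.69% of wells with a count, not of cells that express the gene). Scaled to the library totals, the uninjected rate was 2.25-fold a floor of 3 counts over the treated library. This ratio makes no allowance for counting error in the 36 counts, and it rested on B08. Without that well the uninjected library had 14 counts, or 0.128 per 10000, which lies under the treated floor of 0.144. After thinning, the expected share of uninjected wells with a count was 1.29%. The thinned depth lay below that of the median treated well. Whether a difference between the libraries could be detected at the treated wells' own depth was thus not tested. The log-fold was -0.18.

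The receptor, antagonist and sensor genes were close to the limit of detection. *Il18r1* (chromosome 1, 40465552 to 40500854), a subunit of the IL-18 receptor, had 15 counts in 8 uninjected wells (8.395 to 24.7), among them 5 in H06 and 2 in its partner H12, or in 7 of 43 with partners summed (16.3%), and 2 counts in 2 treated wells (0.242 to 7.22). *Nlrp3* (chromosome 11, 59541568 to 59566956), the sensor, had 4 single counts in uninjected (1.09 to 10.2) and 2 in treated wells. *Il18bp* (chromosome 7, 102014885 to 102018690, overlapping *Numa1*), which binds and blocks IL-18, had 1 count in uninjected (0.0253 to 5.57) and 4 in treated wells (1.09 to 10.2), each in a separate well. These 5 counts were too few to set the libraries apart. These genes were thus not detectable in most wells, whereas *Il18* had at least 1 count in each.

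**Figure D5:**
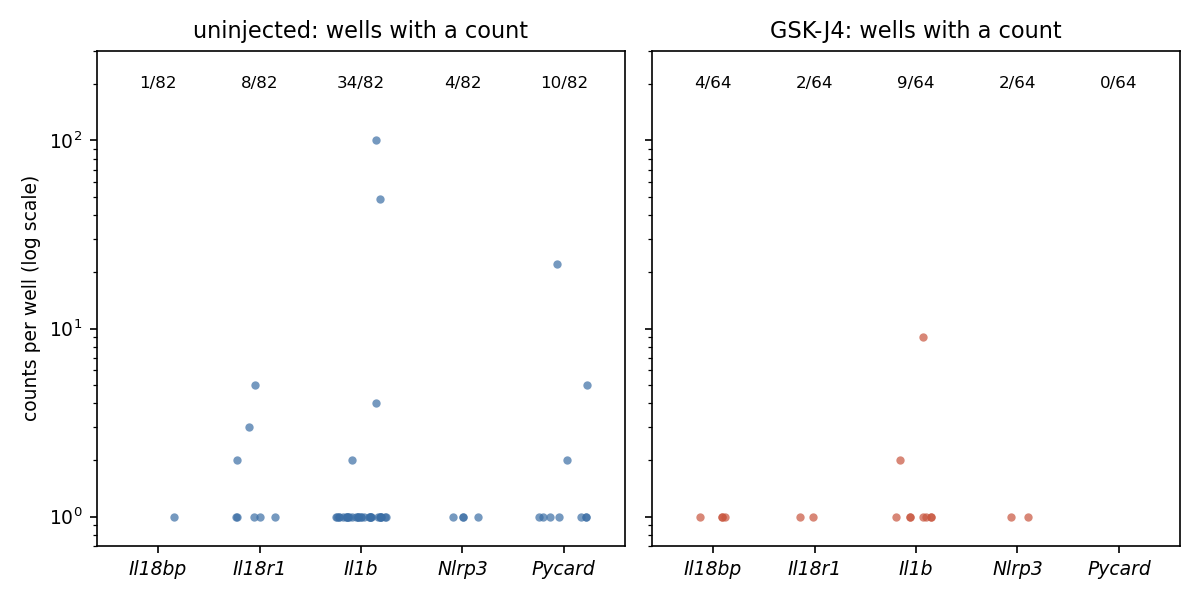
Counts of the 5 other members in the wells that had any, on a log axis, for uninjected (left) and GSK-J4-treated wells (right), with the number of wells with a count above each gene. Most points are single counts, and the highest in the uninjected library are H10 and H04 for *Il1b* (101 and 49) and B08 for *Pycard* (22).

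Taken singly, most wells of both libraries had no count of a member other than *Il18*, with no allowance made for the depth of the wells. With partner wells summed this did not hold for the uninjected library, where *Il1b* alone was counted in 23 of 43 (53.5%). Beside *Il18*, 44 of 82 uninjected wells had no other member, 22 had 1, 13 had 2 and 3 had 3, whereas 47 of 64 treated wells had none and 17 had 1. The members that reached a share of 10% of wells in either library were the 3 genes *Il18*, *Il1b* and *Pycard*, and the others were given by their counts alone. None of the 3 lay beyond 0.3 log-fold, while 44.4% of the 7682 genes tested in this way did (3410 genes, selected by size with no test). Leaving out D04 and D10 put *Il18* beyond it, higher in treated wells. With partner wells summed, 4 members reached 10%, *Il18r1* being added, none lay beyond 0.3, and 36.2% of 10135 genes did.

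A wider list of interleukin-1 family and inflammasome genes held 60 genes, of which 41 could be looked up by symbol, 34 passed the gene filter and 10 reached the same share of wells. Of these 10, 2 were higher and 3 lower by more than 0.3, against 1568 higher (20.4%) and 1842 lower among the 7682 genes tested. With partner wells summed, 20 genes of the list reached it. The median log-fold of the 10 genes was 0.072, beside -0.0050 over all genes tested. The list and the members were chosen with earlier results of these data known, and these counts are a description.

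Downstream of the receptors, *Tab2*, which couples TRAF6 to the kinase TAK1, had 0 counts in the uninjected and 101 (82.3 to 123) in the treated library, where it was found in 29 of 64. Its treated rate was 180-fold a floor of 3 counts over the uninjected library, with no allowance for counting error in the 101 counts. One treated well, H11, held 73 of the counts, and without it this ratio was 51.8-fold, from 28 counts in 28 wells. *Myd88*, the adaptor shared by the IL-1 and IL-18 receptors, had 7 counts in 7 wells and 23 (14.6 to 34.5) in 20 wells, a log-fold of 0.60. *Nfkb1*, a subunit of the transcription factor NF-κB, had 67 (51.9 to 85.1) and 2 counts, with 39 of the 67 in C07, and a log-fold of -0.60 that was -0.040 over columns 1 to 6 alone. *Irak3*, an inhibitory kinase-like protein of the same pathway, had 33 and 10 counts (0.17), *Nfkbia*, which encodes an NF-κB inhibitor, 53 and 9 (-0.025), and *Rela* 16 and 0.

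Among proteases and pore-forming proteins, *Gsdme*, a gasdermin cut by caspase-3, had 530 (486 to 577) counts in 66 of 82 uninjected wells and 26 (16.98 to 38.1) in 7 of 64 treated wells, with 20 of the 26 in E12. Its log-fold of -1.06 was the lowest of the list and was negative under each of the 12 settings compared, from -1.92 to -0.48. *Brcc3*, a deubiquitinase of NLRP3, had 70 and 4 counts, with 31 of the 70 in C12, and a log-fold of -0.38, which was 0.20 over columns 1 to 6 alone. Of the other sensors, *Nlrp12* had 37 and 6 counts (-0.050), *Nlrp1b* 16 and 2, and *Nlrc4* 14 and 3. *Card9* had 10 and 10 counts, the channel gene *Panx1* 15 and 2, and the ATP receptor gene *P2rx7* 12 and 5. The 7 receptor genes of the list had at most 9 counts each in either library, including *Il18rap*, the partner of *Il18r1*, with 7 and 8, and *Il1r1* with 9 and 5. The other 20 genes that passed the filter, receptors included, stayed under 10 counts in both libraries.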

How the data were processed

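The authors deposited raw counts per gene and cell for 85 uninjected and 66 GSK-J4-treated wells. They had demultiplexed reads by plate, barcode and primer, aligned them in the CLC Genomics Workbench, removed PCR duplicates by a UMI of 8 nt and mapping position, assigned reads to Gencode M17 genes with featureCounts, and added the counts of 3′ and 5′ reads. The genome is named as GRCh38, a human build number. Gene positions here are from GENCODE vM21 (GRCm38). The submitters' filter was applied again (genes in at least 3 wells, wells with no fewer than 200 genes and no more than 5% mitochondrial counts). Wells were scaled to 10000 counts and log-folds computed with a pseudocount of 1. No batch correction was applied and no doublet caller was run. With 1 library per condition, cells are not replicates and no test was run. Intervals are 95% exact Poisson or Clopper-Pearson intervals.

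Members and lists were chosen with earlier results of these data known. Named were the members, list genes with at least 10 counts in either library, the 3 genes most correlated with *Il18* in each library, and its neighbours in rank and on the chromosome. Genes in every well, partner wells and wells singled out were chosen after the data were examined. Scripts ran in Python 3.11.15 with scipy 1.17.1, numpy 2.4.6 and pandas 2.3.3. On counts simulated for this comparison (15947 genes) the direction was right for 200 of 200 changed genes. The simulated wells varied by counting error alone, none were linked, and only highly counted genes were changed. The result therefore does not extend to genes with a wider spread, such as *Il18*, or to members with few counts.

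Marker lists took these shares of uninjected and GSK-J4-treated counts: cone 2.59% and 0.213%, rod 0.139% and 0.0201%, Müller glia 0.0967% and 0.0350%, pigment epithelium 0.0156% and 0.0158%, endothelial 0.00647% and 0.0144%, T and NK cells 0.0329% and 0.0101% (351 of 366 uninjected counts of *Cd8a*), neutrophil 0.00305% and 0.00384%.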

Additional observations from a re-analysis of the deposited data

How the results depend on the processing

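The log-fold of *Il18* was -0.15 as reported. It was -0.48 with a minimum of 500 genes, -0.11 with summed counts, -0.68 with median-ratio size factors, -0.35 after thinning, -0.026 over columns 1 to 6, -0.25 over columns 7 to 12, -0.66 with totals without the 20 most counted genes and -0.059 with linked wells summed. It changed sign to 0.73 without D04 and D10 and to 0.48 with the median over wells. Without D04 and D10 it was also 0.45 with summed counts, -0.10 with median-ratio size factors, 0.55 thinned, 0.48 with 500 genes, 0.74 with the reduced totals, 0.69 and 0.77 on the first and last columns, and 0.49 with the median. That the sign turns on these wells follows from leaving them out. The causes of the other shifts were not tested.

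The number of members beyond 0.3 was 0 as reported, with all deposited cells and with linked wells summed. It was 3 with median-ratio size factors (all lower) and 1 with the minimum of 500 genes, summed counts, thinning, a pseudocount of 0.1, either side of the plate, the reduced totals, and without D04 and D10. Of all genes tested, 42.1% lay beyond 0.3 with median-ratio size factors, 2611 lower and 625 higher. The share was 85.4% after thinning, where 1 member was tested, and 79.1% with a pseudocount of 0.1. In the other settings it lay from 36.2% to 51.5%. The number of list genes beyond 0.3 was 5 as reported, and 6 with summed counts, over columns 1 to 6 and with the reduced totals. It was 3 of the 3 tested after thinning, 8 of 10 with a pseudocount of 0.1, and 5 in the other settings. The share of wells with *Il18* was 100% in both libraries, and 90% of treated wells in 1 thinned draw. The median log2-fold of all genes tested was -0.0072 as reported, 0.33 after thinning (1510 genes in place of 7682) and -0.21 with median-ratio scaling. No paired analysis was possible because each condition has 1 library. The values of *Nlrp3*, *Il18bp*, *Il18r1* and *Pycard* rest on few counts, and whether depth or low expression accounts for this was not tested.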
